A study of Danio rerio with 12 samples.

Results

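Chromosome 6 was the chromosome whose share of accessible intervals varied least among 8 zebrafish melanomas, and it was chosen by that measured share, as the chromosome on which the tumours differed least. Its members were the peak intervals on chromosome 6 in the 12 libraries of the series, counted after every library had been reduced to its 57910 strongest intervals on chromosomes 1 to 25. They came to between 2169 and 2497 intervals per library. Merged across libraries at 1 bp of overlap, they formed 7557 regions of 192867 in the genome. All coordinates are of the GRCz11 (danRer11) assembly, counted from 1.

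The intervals came from ATAC-seq, in which a transposase cuts open chromatin and leaves sequencing adapters there, so that a peak marks a stretch of accessible DNA. Melanocytes (MC) were sorted from skin by mCherry under the mitfa promoter, and melanoma cells (MA) were sorted from tumours by EGFP under crestin, a neural crest marker that is switched on again in zebrafish melanoma. The genotype was BRAFV600E/+, p53+/lf, mitfa+/- and mitfa:mCherry in 3 MC_Het libraries (replicates 4, 5 and 6), BRAFV600E, p53lf/lf, mitfa+/- and mitfa:mCherry in 1 MC_Homo library, and BRAFV600E, p53lf/lf and crestin:EGFP in 8 MA libraries (replicates 4 to 11). Each library came from a different fish, no ages were given in the labels used here, and every group, melanocytes included, carried the BRAFV600E transgene, which the mitfa promoter drives in pigment cells, together with at least 1 p53 loss-of-function allele. The melanocyte line also carried a mitfa minigene in its reporter vector, and the sort limits each library to cells in which the reporter was active. Run 2 comprised the whole MC group plus MA replicates 4 and 5, and run 3 comprised the other 6 tumours, so that only run 2 allows cell type to be compared at a fixed run.

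Tumours that lose p53 commonly gain or lose whole chromosomes or arms, and a segment present in more copies offers the transposase more template. The share of a library's peaks that falls on a chromosome, or on a stretch of it, can therefore move with copy number as well as with accessibility, and peak lists alone do not separate the 2 quantities. Zebrafish chromosome 6 is also the home of mitfa, which encodes the transcription factor that specifies melanocytes. No annotation of the GRCz11 assembly was used here, so no region was assigned to a gene and the labelled cell types were not checked against marker genes.

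Depth was solved from each list's fold enrichments and p-values and is given in M tags (1000000 read ends). It ran from 6.05 M to 24.62 M, with MC_Het replicate 5 the deepest. This library stood apart from the other MC libraries, and its complete list held 10280 intervals on chromosome 6 where the other 11 libraries held between 2240 and 3806. Intervals of 119 to 121 bp, close to the shortest width, made up 21.1% to 32.7% of chromosome 6 intervals in MC, 22.1% and 22.2% in the MA libraries of run 2, and 7.24% to 9.98% in those of run 3. Confidence intervals of shares cover counting error over peak intervals only. They treat the intervals as independent and leave out variation between fish and between libraries.

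Chromosome 6 held 4.01%, 3.99% and 4.05% of intervals in MC_Het replicates 4, 5 and 6 and 3.87% in MC_Homo. In MA replicates 4 to 11 it held, at the lowest, the median and the highest library, 3.75%, 3.90% and 4.31%. The groups overlapped. MC averaged 3.98% ± 0.08 (SD, n = 4), and MA averaged 3.99% ± 0.22 (SD, n = 8). With 57910 intervals per library, the 95% Wilson interval of a share ran from 3.59% to 3.90% in MA replicate 4 and from 4.15% to 4.48% in MA replicate 9. These are the lowest and the highest of the 8 tumours, and their Wilson intervals did not overlap although the spread over tumours was small. A pair picked as the extremes does not test a difference between tumours. As log2 of the share against the MC mean, the 8 tumours lay between -0.09 and 0.12 with an SD of 0.08, while chromosome 17, the next in order, had an SD of 0.13 and chromosome 16, the most variable, had 0.39. These values chose the chromosome and are given as a description, with no test.

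**Figure D1:**
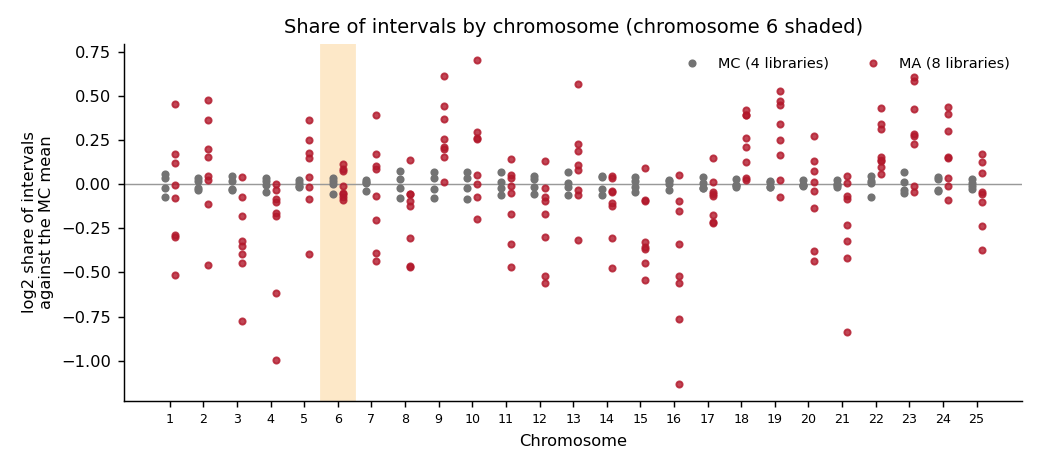
Log2 of each library's share of intervals against the MC mean (y axis) for chromosomes 1 to 25 (x axis), with 1 point per library, grey for MC and red for MA. An MC library is set against the other MC libraries. On the shaded chromosome 6 the 8 MA points lie between -0.09 and 0.12.

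The steadiness of the whole chromosome was next compared with that of its 13 windows of 5 Mb. The last window was a short remainder from 60 to 60.268 Mb, with 19 to 31 intervals per library. No window of chromosome 6 in any MA library left the range that MC libraries covered in windows across the genome (-0.58 to 0.50 on the log2 scale), which makes 0 of 104 values, against 13.3% of 2240 values over chromosomes 1 to 25. Of those 2240 values 8.08% lay below the range and 5.22% above it. Chromosome 25 also had none outside. The count of 0 rested on single MC libraries, since it became 5 without MC_Het replicate 5 and 2 without MC_Homo. It also rested on a wide range, as MC libraries on chromosome 6 itself covered only -0.28 to 0.24. Against the 4 MC libraries of the same window, 6 tumours lay below all and 1 above all in the first window. From 45 to 50 Mb 5 lay above all and 1 below all, and from 35 to 40 Mb 0 lay outside. These 3 windows include the extremes, as the count above all ran from 0 to 5 over the 13 windows and that below all from 0 to 6. A range of 4 libraries is only a rough limit, and no genome share is given for these counts. They are therefore not read as a trait of this chromosome. Within the chromosome, however, the windows were not equally steady in every tumour. The SD over the 13 windows was 0.10 to 0.14 in MC, 0.08 in both MA replicates 4 and 5, and 0.14 to 0.26 in the MA libraries of run 3. The mean over MA, 0.15 ± 0.06 (SD, n = 8), placed chromosome 6 at rank 12 of 25 from the least variable, so by this measure it was not among the steadiest. The short last window weighed as much as the others in these SDs. It gave the most extreme ratio of MA replicates 8, 9 and 11, at 0.32, 0.37 and -0.34. Its few intervals make counting error larger there, and the rank without it was not computed.

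MA replicate 6 had the largest window SD, 0.26. Its first 4 windows, up to 20 Mb, had log2 ratios of -0.35, -0.37, -0.35 and -0.47, the next pair had -0.20 and -0.19, and the windows from 45 to 50 Mb and from 50 to 55 Mb had 0.40 and 0.31. In counts, the window from 10 to 15 Mb held 213 intervals in MA replicate 6, and 271, 280, 267 and 267 in MC_Het replicates 4, 5 and 6 and MC_Homo. The window from 45 to 50 Mb held 211 intervals in MA replicate 6, and 162, 154, 156 and 167 in the same MC libraries. Over the first 30 Mb this tumour held 854 intervals against an MC mean of 1073.5, and over the rest it held 1341 against 1232, so the surplus offset the deficit only in part. The share of the whole chromosome was 3.79%, with a log2 ratio of -0.07. MA replicate 7 was also low in the first window, at -0.27, and from 15 to 20 Mb, at -0.37. It had -0.06 from 5 to 10 Mb, however, and only 0.04 and 0.07 from 45 to 50 Mb and from 50 to 55 Mb. MA replicate 10 was high in the first 3 windows, at 0.14, 0.17 and 0.27, and low from 55 to 60 Mb, at -0.26, while from 45 to 50 Mb and from 50 to 55 Mb it had 0.11 and 0.25, above 0 as in MA replicate 6. MA replicates 4 and 5 stayed between -0.23 and 0.17 throughout.

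**Figure D2:**
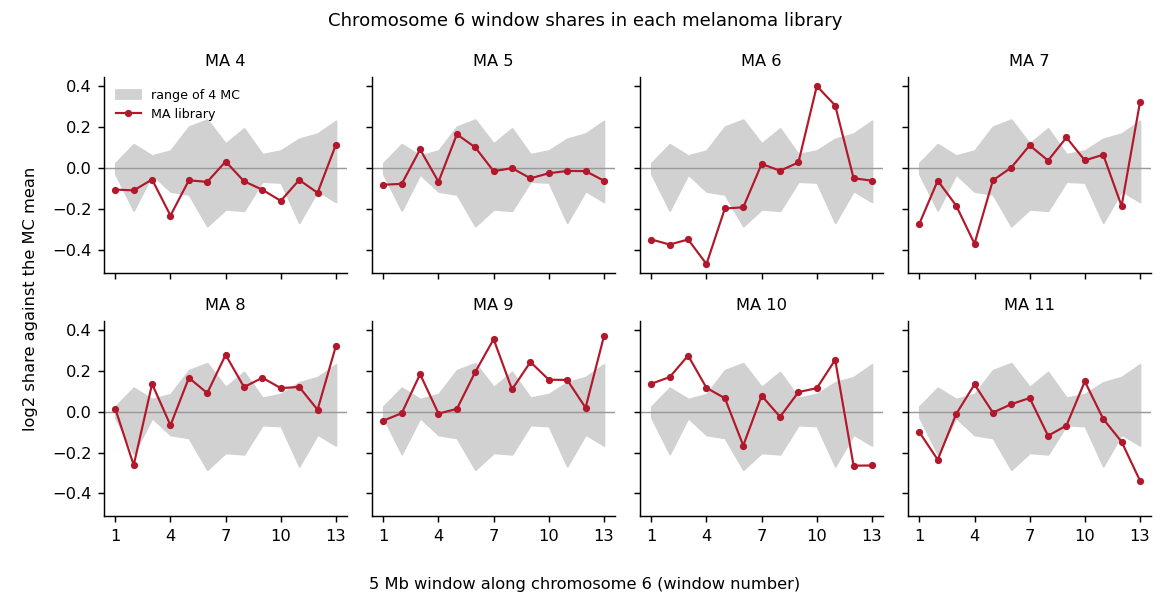
Log2 of the share of intervals against the MC mean (y axis) in 13 windows of 5 Mb along chromosome 6 (x axis, window number), 1 panel per MA library, with the range of the 4 MC libraries in each window in grey. Window 13 is a short remainder from 60 to 60.268 Mb. MA replicate 6 runs from -0.35 in the first window to 0.40 in window 10.

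Divided at 30 Mb, a point picked after the window values had been seen, the first part of the chromosome held 45.7% to 47.2% of chromosome 6 intervals in the MC libraries. In the MA libraries it held, at the lowest, the median and the highest, 38.9%, 45.6% and 48.3%. The lowest was MA replicate 6, with a 95% Wilson interval of 36.9% to 41.0%, and the next lowest was MA replicate 7 with 43.2%. The log2 ratio of the rest against the first part was 0.45 in MA replicate 6, 0.20 in MA replicate 7 and -0.10 in MA replicate 10, and between -0.05 and 0.07 in MC. When every chromosome was divided at its own middle, chromosome 6 ranked 25 of 25 (25 the largest) by the size of this ratio in MA replicate 6. The share of the whole chromosome in that tumour, 3.79%, lay below the MC libraries, which held 3.87% to 4.05%. In the other tumours its rank ran from 2 in MA replicate 11 to 21 in MA replicate 7. By the mean size over the 8 tumours it ranked 18 of 25. Larger ratios occurred elsewhere, such as 0.85 on chromosome 1 in MA replicate 11 and -0.70 on chromosome 4 in MA replicate 8. The middle of chromosome 6 is close to 30 Mb, so this division is not independent of the point picked above.

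A second quantity was the height of the tag pileup at the summit, solved from fold enrichments and the same p-values that ranked the lists. Height therefore also bore on which intervals entered a list, and so on the shares that chose the chromosome. It was compared over 704 chromosome 6 regions that were at least 150 bp wide and were found in all 8 tumours, with each tumour set against the other 7. In MA replicate 6 the median log2 height was -0.44 over 308 regions in the first 30 Mb, where 60 regions were above 0, and 0.25 over 396 regions in the rest, where 257 were above 0. The difference between the parts was 0.69 in this tumour and between -0.28 and -0.02 in the other 7. In MA replicate 7 it was -0.04, so the height did not show the direction of its interval shares against MC. By window, the height in MA replicate 6 was lowest among windows of over 20 regions from 10 to 15 Mb, at -0.54, and highest from 45 to 50 Mb and from 50 to 55 Mb, at 0.58 and 0.52. These are the windows in which its interval shares were also low and high. Share and height come from the same libraries and are not independent, and copy number and accessibility cannot be told apart in peak lists. Over the chromosome as a whole, the median height differed least between tumours on chromosome 6 of all 25 chromosomes, with an SD of 0.15 over 8 tumours. As height and share are linked, this is a description and no separate support for the choice.

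**Figure D3:**
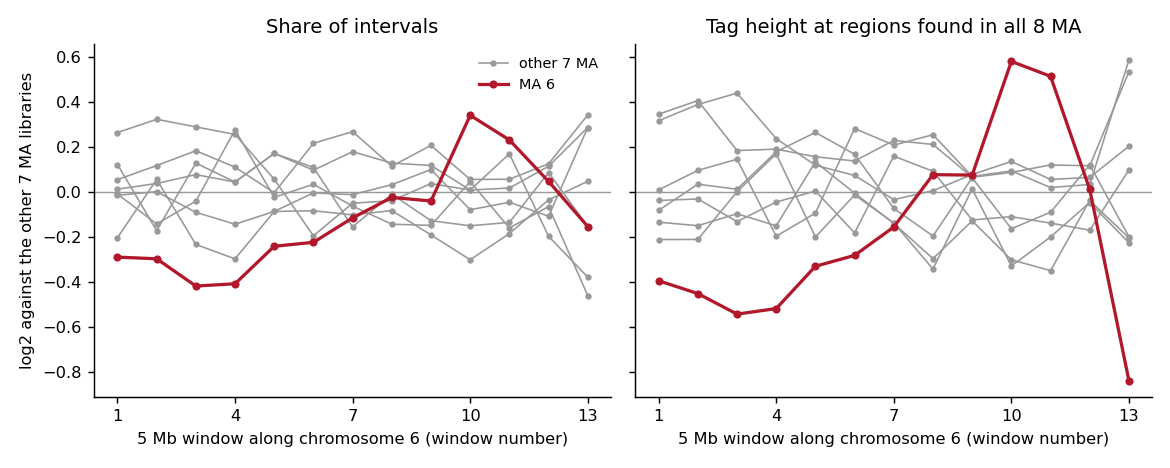
Log2 share of intervals (left) and median log2 tag height at regions found in all 8 tumours (right), both against the other 7 MA libraries (y axis), by 5 Mb window along chromosome 6 (x axis, window number), with MA replicate 6 in red and the others in grey. Leaving out the short last window, MA replicate 6 is lowest in windows 3 and 4 and highest in windows 10 and 11 in both panels. Its height in the last window, -0.84, is lower still and rests on 9 regions.

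Although the mean share of the chromosome was nearly the same in MC and MA, the regions that made it up differed between libraries. Of the 7557 chromosome 6 regions, 2873 (38.0%) were found in MA libraries only, 2170 (28.7%) in MC libraries only and 2514 (33.3%) in both. Over the genome these shares were 38.9%, 28.1% and 33.0%, so the split was close to the background. All 12 libraries held 379 regions (5.02%, against 4.29% over the genome). Single libraries accounted for 3360 (44.5%, against 44.4% over the genome). Of these, 1535 were in 1 MA library only (20.3% of chromosome 6 regions, against 21.2% over the genome). The other 1825 were in 1 MC library only (24.1%, against 23.2%), so these shares were close to the background. Fisher's exact test on detection (4 MC against 8 MA libraries) was run for the 53511 regions of the genome that could reach p under 0.05, and 2081 of these were on chromosome 6. At an adjusted p under 0.05 by Benjamini-Hochberg only complete separation passed, and it was met by 136 chromosome 6 regions present in each of the 8 tumours and absent from MC, and by 14 present in each of the 4 MC libraries and absent from MA. Over the genome 6.62% of tested regions were called in the first direction and 1.01% in the second. On chromosome 6 the first share was 6.54%, close to the background. The second was 0.67%, below the background, and rests on only 14 regions. At an unadjusted p under 0.05 the chromosome had 337 regions more often detected in MA (16.2% of tested regions) and 123 more often in MC (5.91%). The background was 16.5% and 7.11% of tested regions. Detection defined these regions, so the counts are a description.

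The 136 melanoma regions were spread along the whole chromosome, with 61 in the first 30 Mb and 75 in the rest. Every window held at least 1 of them, and the count was highest in the first window with 22 and from 50 to 55 Mb with 20. Of the tested regions in a window, between 3.36% and 8.59% were of this class. Grouped at a distance of 50 kb, 75 stood alone, 21 pairs and 5 triples formed, and 1 group of 4 lay at chr6:57693877-57719133. Their median width was 426.5 bp, from 174 to 881 bp, and 40 were 500 bp or wider. None was a narrow interval of 119 to 121 bp, against 0.14% of this class over the genome.

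The strongest melanoma regions by mean rank within the lists had high fold enrichment in all 8 tumours, where fold enrichment is the summit pileup over the local background after adding 1 to each. The region at chr6:27146514-27147394 ranked first, with a fold of 28.54, 20.72, 30.21, 33.33, 27.50, 27.69, 27.18 and 19.26 in MA replicates 4 to 11. Below the equal-length cutoff it was present in the complete lists of MC_Het replicates 5 and 6 at a fold of 3.18 and 3.88. The region at chr6:38854824-38855345 followed, at 16.84 at the lowest, 22.70 at the median and 28.27 at the highest tumour, with 4.04 in MC_Het replicate 4 and 3.66 in MC_Het replicate 5. The third, at chr6:52842775-52843258, ran from 13.57 in MA replicate 11 to 34.99 in MA replicate 6, with 3.18 in MC_Het replicate 5. The fourth, at chr6:124379-124823 close to the start of the chromosome, ran from 10.10 to 19.73 and was the only one of the 10 strongest that all 4 complete MC lists lacked.

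The next 6 were chr6:9537545-9538135, chr6:37599043-37599511, chr6:53020180-53020717, chr6:51932027-51932489, chr6:9796614-9797162 and chr6:30805682-30806314. Among these, chr6:51932027-51932489 varied most between tumours, from 11.98 in MA replicate 10 to 41.13 in MA replicate 6. The complete list of MC_Homo is itself the shortest, at 57910 intervals, so it holds nothing below the cutoff and could not cover any of the 10. All of the MC folds seen at these 10 regions were under 5, and all of the MA folds were over 10. The choice of regions largely set this gap. They had to be in every MA list, below the cutoff in MC, and best ranked in the tumours.

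Absence from an equal-length list was not the same as absence of signal. Of the 136 melanoma regions, 45 lacked an interval in all 4 complete MC lists. The complete list of MC_Het replicate 5 covered 85 of the 136 (62.5%, against 64.9% over the genome), and for 61 it was the only MC list that did. This library had 24.62 M tags, and the part of depth in these counts was not tested. Over the genome 30.7% of such regions had no interval in a complete MC list, against 33.1% on chromosome 6.

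The 14 melanocyte regions were weaker and narrower than the 136 melanoma regions. The 2 classes are not directly comparable, since a melanoma region merges intervals of 8 libraries and a melanocyte region those of 4. Over the genome the same classes had median widths of 424.5 and 179 bp, so the gap was not particular to chromosome 6. The number of melanocyte regions rested on single libraries, since it rose to 39 without MC_Het replicate 5 and to 39 without MC_Homo. Their median width was 236 bp, and 4 were narrow intervals (28.6%, against 20.3% of this class over the genome). From all 8 complete MA lists 9 were missing (64.3%, against 58.0% over the genome). Both shares rest on only 14 regions. The strongest, chr6:32009835-32009962, had a fold of 11.84, 15.89, 10.18 and 9.75 in MC_Het replicates 4, 5 and 6 and MC_Homo, and the 8 tumours had no interval there in their complete lists. The region at chr6:4161449-4161795 had 17.61, 5.37, 7.62 and 7.85 in the same order, with 4.55 and 4.88 in the complete lists of MA replicates 5 and 8. The third, chr6:38850910-38851057, had 5.88, 9.97, 8.77 and 5.08 and no interval in any MA list. It lay 3.77 kb from the melanoma region chr6:38854824-38855345, so that this short stretch held an interval of each class. Of the 14, this was the one nearest to a melanoma region.

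The remaining 7 of the 10 strongest melanocyte regions were chr6:3812768-3813128, chr6:32021102-32021221, chr6:11332292-11332412, chr6:23477718-23477938, chr6:40530452-40530922, chr6:3844212-3844599 and chr6:45129408-45129658. Their folds in MC lay between 5.07 and 11.86, and the highest of these overlapped the lowest MA folds at the 10 strongest melanoma regions, which began at 10.10.

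**Figure D4:**
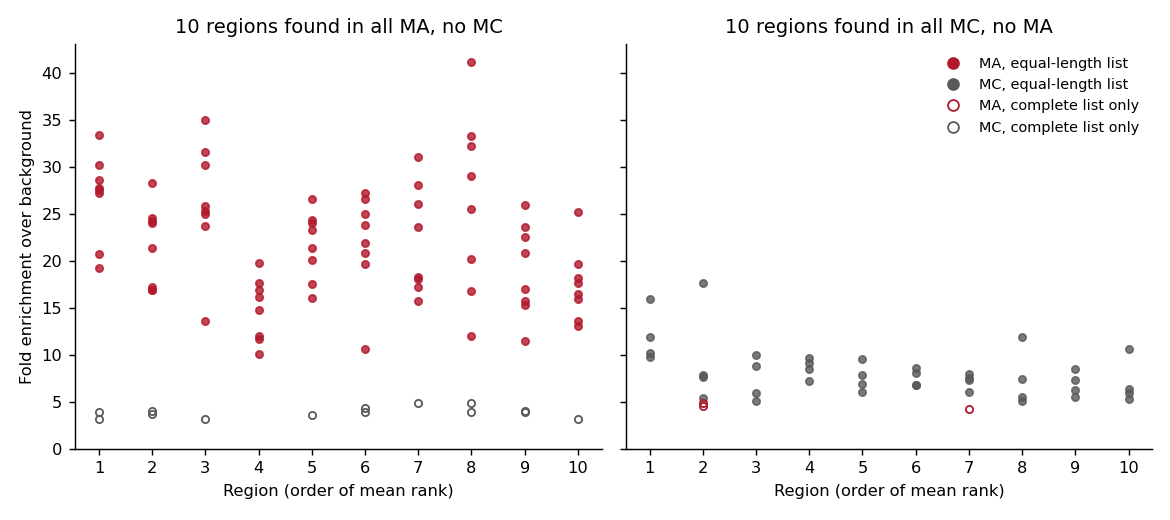
Fold enrichment at the summit (y axis) in each library for the 10 strongest regions of each class on chromosome 6 (x axis, order of mean rank), with MA in red and MC in grey. Filled points are intervals in the equal-length lists, and open points are intervals found only in the complete lists, which lie between 3 and 5. Libraries with no interval have no point.

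Run and cell type overlapped in these classes. A further 239 regions of chromosome 6 were found in all MC libraries and in MA replicates 4 and 5, and in no library of run 3. They made up 3.16% of its regions, close to the 3.12% over the genome, and 46.9% of them were narrow intervals. Within run 2 alone, 342 regions were present in both tumours and absent from MC, and 46 were present in the whole MC group and absent from both tumours. These counts rest on 2 tumours, and no genome share is given for them, so they are not read as a trait of this chromosome.

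The 379 regions found in all 12 libraries allowed the heights to be compared directly, after each library had been centred on its median over the 8276 such regions of the genome. The 244 regions that were 150 bp or wider in MC had a median height in MA that was 1.01 above the MC mean on the log2 scale, and 156 were above 0 in all 8 tumours. The 135 regions that were narrower in MC had a median of -1.16, and 95 were below 0 in all 8 tumours. Since wide and narrow regions were centred together, a rise of one class lowers the other, so that the position of 0, and the counts above and below it, are partly set by the centring and only the gap between the classes is free of it. Genome-wide the same classes had medians of 0.85 and -1.13, with 50.1% of the wide class above 0 in all 8 tumours against 63.9% on chromosome 6. Of the narrow class, 73.9% were below 0 in all 8 tumours over the genome, against 70.4% on chromosome 6. Over all 379 regions the median was 0.54, against 0.13 over the genome, and the tumours' own medians on chromosome 6 ran from 0.20 to 0.66. The medians of the wide class ran from 0.64 to 1.28 over tumours and those of the narrow class from -1.76 to -0.37, and neither overlapped the MC libraries, which lay between -0.30 and 0.37.

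**Figure D5:**
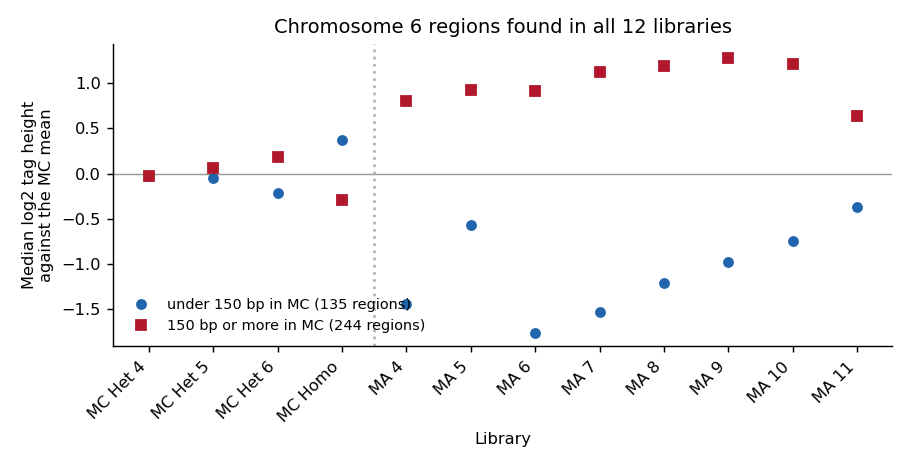
Median log2 tag height against the MC mean (y axis) in each of the 12 libraries (x axis) over the 379 chromosome 6 regions found in all of them, split at 150 bp of width in MC. The 8 MA libraries lie from 0.64 to 1.28 for wide regions and from -1.76 to -0.37 for narrow ones.

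Intervals on chromosome 6 were wider in melanoma, as they were over the whole genome, where the median width averaged 133.0 bp in MC and 187.5 bp in MA. The median width was 121, 164.5 and 127 bp in MC_Het replicates 4, 5 and 6 and 120 bp in MC_Homo, and 150 bp, 181.5 bp and 221 bp at the lowest, the median and the highest MA library. Only MC_Het replicate 5, the deepest library, overlapped the MA range. The MC mean was 133 ± 21.1 bp (SD, n = 4) and the MA mean 187 ± 28.1 bp (SD, n = 8). Tumours thus exceeded melanocytes by 53.4 bp, with an adjusted p of 0.0283 by a two-sided exact permutation test over 495 splits. The size of the difference depended on the list length, from 32.8 bp in complete lists to 166.5 bp with the 10000 strongest intervals. Within run 2 the difference was 42.1 bp with an exact p of 0.0667, the smallest that 15 splits allow. Between the MA libraries of run 3 and run 2 it was 15.1 bp (exact permutation p = 0.607).

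The strength of chromosome 6 intervals relative to the rest of each library did not differ beyond the spread. The median rank by p-value, as a percent of the list with 0 the strongest, averaged 49.4 ± 0.76 over MC (SD, n = 4) and 49.0 ± 0.87 over MA (SD, n = 8). MA minus MC was -0.33 (adjusted p = 0.560, exact permutation test). Intervals of this chromosome were thus ranked near the middle of the list in both groups.

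Tumours resembled each other more on chromosome 6 than melanocyte libraries did. The Jaccard index, the covered bases shared by a pair of libraries as a percent of those covered by either, was 44.4% ± 5.87 over 28 MA pairs, 32.5% ± 4.10 over 6 MC pairs and 22.1% ± 5.06 over 32 mixed pairs (SD over pairs, which share libraries). Over the genome the values were 42.6%, 31.9% and 20.4%. Mixed pairs with MA replicates 4 and 5, which shared a run with the MC libraries, had 23.0% to 31.7% on chromosome 6. They overlapped the MC pairs, which had 27.1% to 38.4%. Mixed pairs with the other tumours, all of a different run, had 13.9% to 26.9%. The mean of the mixed pairs is therefore not a measure of cell type alone. The pairs were not tested, and interval width, which differed between the groups, limits the overlap a pair can reach.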

How the data were processed

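For each library the authors trimmed reads with CutAdapt, aligned them with BWA to GRCz11, kept proper pairs of mapping quality over 30, removed duplicates and called peaks per library with MACS2 without a control (versions not given in the sources used here; the labels' processing notes also list GRCz10). The deposited peak lists give the fold enrichment, a ratio of pileup to local background, and the −log10 p and −log10 q of each summit. The deposited score and summit offset were not used.

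Lines sharing an interval were collapsed, lists were ranked by −log10 p and the 57910 strongest kept. Up to 9989 intervals tied at the cutoff, and ties were broken at random with a fixed seed. Pileups were solved from fold and p, and at least 99.9984% per library came out whole within 0.05 tags. Permutation tests used the absolute difference of means, and doubling the smaller tail gave p = 0.0121 for width and 0.574 for rank (exact). Adjustment covered 2 tests. Regions named were the 10 of each class with the best mean rank. Scripts used Python 3.11.15, NumPy 2.4.6, SciPy 1.17.1 and pandas 2.3.3, and were tested on simulated data. The members, lists and measures were chosen with earlier results of these data known, and the division at 30 Mb, the width classes, the tag height comparison and the handling of ties after seeing the files. No genome or annotation of the assembly was used here, so promoter shares, genes, motifs and sequences were not analysed here.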

Additional observations from a re-analysis of the deposited data

Results flagged for a closer look

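In 47 sets of values, each the MC or the MA libraries in 1 measure, 4 held a library whose gap to the nearest of the others was large for the range of the set, and chance gives about 1 in 20. MC_Het replicate 5 was such a library among the 4 MC libraries in 3 measures. Its complete list held 266537 intervals on chromosomes 1 to 25, against 57910 to 93511 in the others. Its median width on chromosome 6 was 164.5 bp, against 120 to 127 bp, and 3.38% of its chromosome 6 intervals were 500 bp or wider, against 0.13% to 0.60%. It was also the deepest library, with 24.62 M tags.

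The fourth was MA replicate 6, in which the tag height of the rest of chromosome 6 exceeded that of the first 30 Mb by 0.69 on the log2 scale, against -0.28 to -0.02 in the other 7 tumours. What lies behind this was not tested. The division at 30 Mb was picked after the window values had been seen, and MA replicate 6 varied most in those values. The tag height comparison was also chosen after seeing the files. The chance rate given above therefore does not apply to this library.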

How the results depend on the processing

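Under 30 alternatives the mean log2 ratio of the chromosome 6 share in MA to MC lay between -0.07 and 0.07, each within the SD of 0.08 over tumours in the reported value. The lowest, -0.07, came with the replicate number as a block and exceeded the SD of its own 3 differences, 0.05. The chromosome ranked first among 25 for steadiness in 28 of the 29 alternatives in which the rank was computed, and 3 in run 2 alone. The mean window SD moved to 0.38 with the 10000 strongest intervals, 0.24 with 2.5 Mb windows and 0.081 in run 2 alone, and stayed between 0.14 and 0.16 when 1 library was left out. The number of windows outside the MC range was 1 with the 30000 strongest intervals, with covered bp and with 2.5 Mb windows, 2 with the 10000 strongest, with 10 Mb windows and with MC_Het only, 2 without MC_Homo, 5 without MC_Het replicate 5, and 0 to 5 over all single libraries left out. In MA replicate 6 the first 30 Mb held 31.3% of chromosome 6 intervals with the 10000 strongest.

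The melanoma regions numbered 50 with the 10000 strongest, 69 in complete lists, 80 in complete lists at q 0.01, 342 in run 2 alone and 139 to 179 with 1 library left out. The melanocyte regions numbered 7 with the 10000 strongest, 46 in run 2 alone, 39 with MC_Het only and 14 to 39 with 1 library left out, at 39 without MC_Het replicate 5 or without MC_Homo, 27 and 28 without MC_Het replicates 4 and 6, 22 without MA replicate 4, and 23 without MA replicate 5 or 11.

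The width difference missed the threshold in run 2 alone (42.1 bp, exact p = 0.0667) and ranged from 48.5 to 63.9 bp with 1 library left out (exact p from 0.0121 to 0.0242). It was 166.5 bp with the 10000 strongest intervals, 104.4 bp with the 30000 strongest, 32.8 bp in complete lists and 34.1 bp in complete lists at q 0.01, and passed the threshold in these 4 (exact p from 0.00202 to 0.0101). The rank difference was -3.57 with the 10000 strongest intervals (exact p = 0.0323), from -0.63 to -0.06 with 1 library left out, and turned to 1.88 (exact p = 0.0869) when ties were ordered by chromosome name. This and the other orderings of ties were chosen after seeing the data, and 5 other random orders gave 134 melanoma regions each and 12 to 15 melanocyte regions. Same-numbered MC_Het and MA libraries deviated together little (correlations of 0.04, 0.09 and 0.09 over 280 windows), so the windows gave no sign of pairing. Low correlations of this kind cannot show that the numbers carry no pairing. With the replicate number as a block, the width difference was 51 bp (exact p = 0.25, the smallest that 3 pairs allow). Promoter shares were not run.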
